A study of Mus musculus with 6 samples.

Results

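The genes described here are 37 interferon-stimulated genes, followed in regulatory T cells (Tregs) sorted from tumorous mouse colon. They were taken by name from a fixed list of genes that type I interferon is known to induce, and all 37 had a row on the array, 1 row each, among 19494 genes with a symbol. By role they comprised 8 sensors of foreign nucleic acid, 19 effectors and 10 regulators. The rule uses no value measured here, although results of these data were known when the list was drawn up.

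Expression was measured on 1-colour Affymetrix arrays, 3 for each of 2 fractions, and each fraction held samples numbered 1, 5 and 6. All mice carried a Foxp3-RFP reporter, which marks Tregs, together with a GPR15-GFP reporter; GPR15 is a homing receptor for the large intestine. In all of them colorectal cancer had been induced, by the mutagen azoxymethane followed by colitis from dextran sulfate sodium (AOM/DSS). CD4-stained RFP+ cells of the colonic lamina propria were sorted as GPR15-GFP+ or GPR15-GFP-, so both fractions share tissue, tumour and reporters and were parted by the green signal. The labels give no strain, age or sex, and do not say whether a number marks 1 animal or a pool, so p-values measure the spread between these samples, which may be technical.

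Type I interferons bind a receptor whose kinases activate a transcription factor complex that holds Stat2 and Irf9, enters the nucleus and binds interferon-stimulated response elements. The genes so induced encode cytosolic sensors that detect viral nucleic acid, effectors that block steps of infection, and regulators that amplify or end the response. Interferon gamma, a product of T cells and NK cells, has a receptor of its own and induces many of the same genes, among them the guanylate-binding proteins, so the list marks interferon exposure rather than one ligand.

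Values are log2 units, so a difference of 1 is a 2-fold change, and each difference is samples labelled GPR15+ minus samples labelled GPR15-. Gpr15 itself was lower in the samples labelled GPR15+ (8.12 ± 0.23 against 8.78 ± 0.31, SD, n = 3 each). Its fractions did not overlap, and it lay below 0 in pairs 1, 5 and 6, at -0.28, -1.26 and -0.43. Every direction below rests on the labels, and an exchange of them would turn every sign. The T cell markers lay high, with 7 of 7 measured above the median level of all genes, as did 7 of 8 further Treg markers, Il2ra being the exception; Foxp3 was not analysed here. Array medians lay between 6.49 and 6.64, and values were spread less widely on both arrays numbered 1 (SD 1.63) than on the remaining 4 (SD 1.74 to 1.87).

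Most interferon-stimulated genes lay slightly higher in samples labelled GPR15+, and none passed the test. Of the 37, 26 lay above 0 and 11 below, with a median difference of 0.11, against a median of -0.06 over all genes, of which 40.8% lay above 0. The differences ran from -0.56 for Ifit3 to 0.96 for Gbp2. With limma and Benjamini-Hochberg adjustment over all 19494 genes, 0 of the 37 were called at an adjusted p of 0.05, as were 0 of all genes (0%), and the members' adjusted p ran from 0.773 to 0.998. At an unadjusted p of 0.05, 3 members lay above (Gbp2, Zbp1 and Herc6) and 1 below (Ifit3), where 2.79% and 3.44% of all genes did. Over all genes the samples of equal number deviated together and were taken as pairs, though those numbered 5 and 6 were hardly parted. With the number as a block, 0 members and 0% of all genes passed the adjusted threshold (lowest adjusted p of a member 0.229, limma). At an unadjusted p of 0.05 there were 5 members above and 1 below with the block, where 6.14% and 6.23% of all genes were. Gbp3 and Irf7 joined Gbp2, Zbp1 and Herc6 above, and Ifit3 was again the 1 below. Leaving out GPR15+ replicate 1 moved the median of the 37 to 0.24, leaving out GPR15- replicate 6 moved it to 0.16, and leaving out GPR15+ replicate 6 moved it to 0.06.

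**Figure D1:**
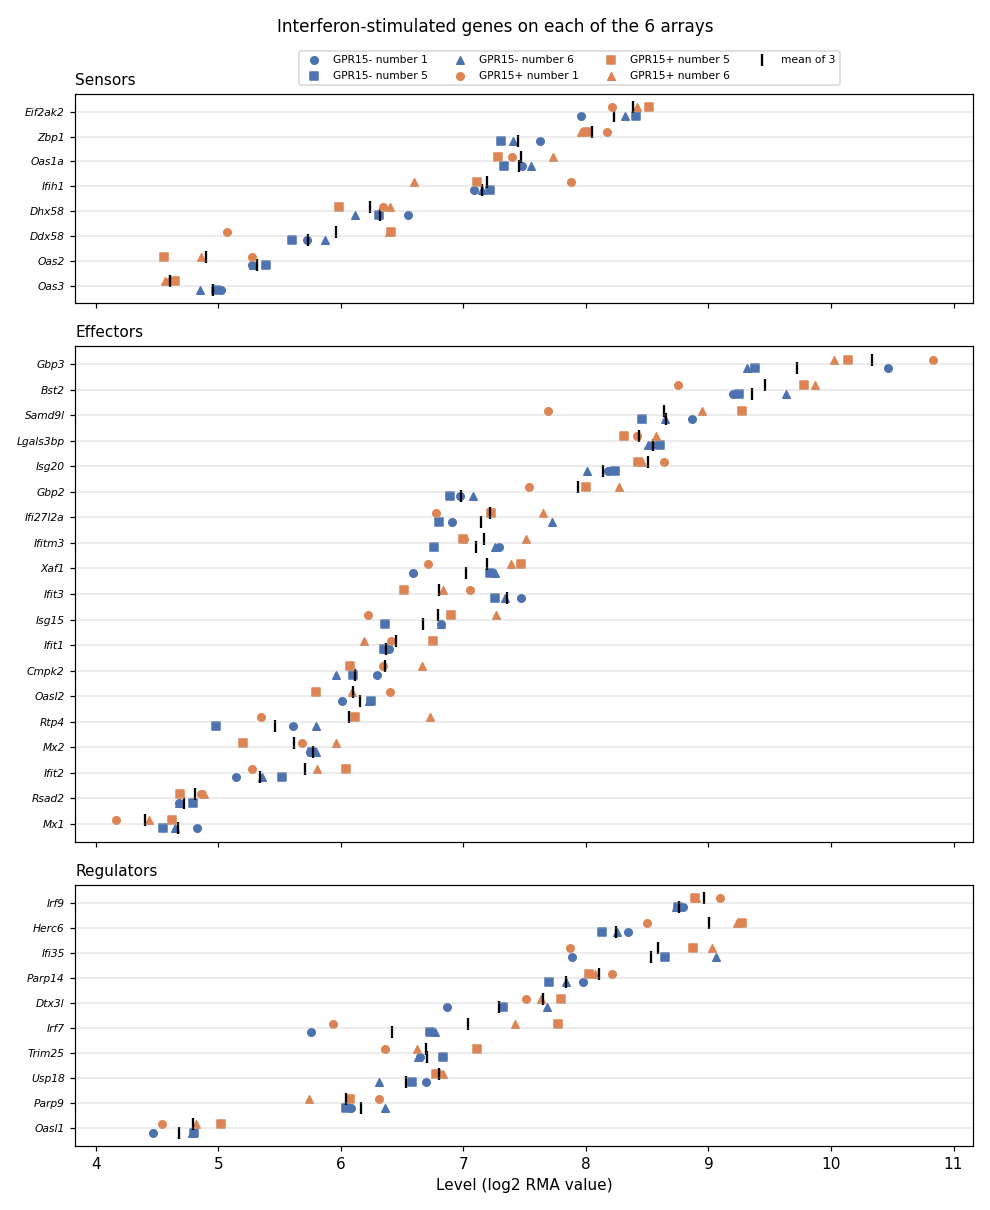
Level of each of the 37 genes on each array, in log2 RMA units on the horizontal axis, with 1 gene a line, sensors, effectors and regulators in separate panels, blue for GPR15-, orange for GPR15+, symbols for the sample number and a black bar for the mean of 3. The orange points lie apart from the blue ones for 9 genes, 7 to the right (among them Zbp1, Gbp2 and Herc6) and 2 to the left (Ifit3 and Oas3).

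For 7 members all 3 arrays labelled GPR15+ lay above all 3 labelled GPR15-, and for 2 members all lay below. These are 18.9% and 5.41% of the 37. Over all genes the shares were 4.12% and 9.17%, so separation upwards was more frequent in the list, and separation downwards less frequent, than over the array; that difference was not tested. The 7 were the sensor Zbp1, the effectors Gbp2 and Isg20, and the regulators Herc6, Usp18, Parp14 and Irf9. The 2 were Ifit3 and Oas3.

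Over the whole array the difference depended on how bright a gene was. Over all genes the median difference was -0.13 at mean levels of 5 to 6 log2 units and 0.08 at 8 to 9. At levels of 6 to 7, 8 of 9 members exceeded the median of their band, and at 7 to 8 it was 9 of 10. In the other bands the counts were 2 of 4 below 5, 3 of 5 at 5 to 6, 4 of 7 at 8 to 9, and 1 of 1 in each of the top 2. With the trend against level removed from each array, the median of the 37 was 0.14 with 29 above 0, against 50.01% of all genes.

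**Figure D2:**
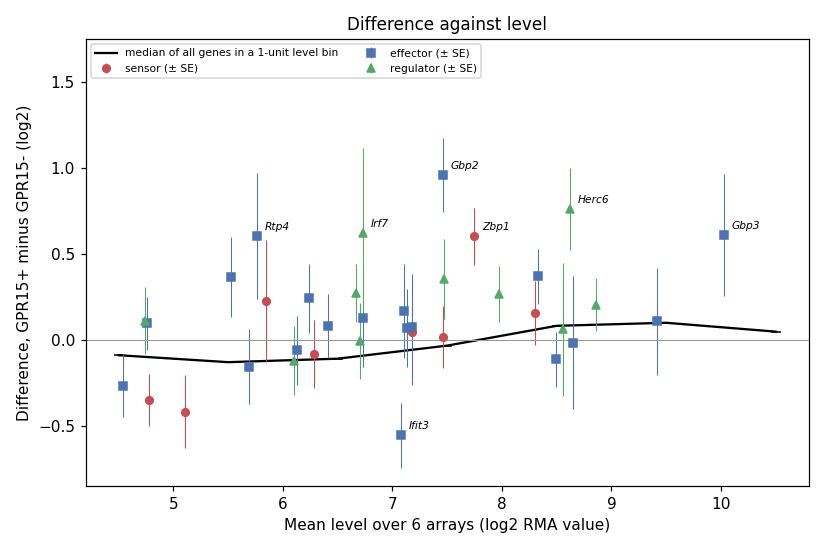
Difference between the fractions (vertical, log2, GPR15+ minus GPR15-) against the mean level over 6 arrays (horizontal, log2), with a point and limma's standard error for each of the 37 genes and a line for the median of all genes in bins of 1 unit, the outermost bins being open-ended. Gbp2 at 0.96 and Herc6 at 0.76 are the highest points and Ifit3 at -0.56 is the lowest.

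Of the 8 sensors 5 lay above 0 and 3 below, and their median difference was 0.03. It was -0.04 or -0.05 when GPR15+ replicate 1 or 6 was left out. Zbp1, which recognises Z-form nucleic acid and can trigger necroptosis, lay at 7.62, 7.31 and 7.41 in GPR15- samples 1, 5 and 6 and at 8.17, 8.01 and 7.96 in GPR15+ samples 1, 5 and 6. The fractions did not overlap, and the difference of 0.60 ± 0.17 (SE) was similar in the pairs 1, 5 and 6, at 0.55, 0.70 and 0.55 (limma adjusted p = 0.773). Eif2ak2, the kinase PKR that halts translation on binding double-stranded RNA, also lay above 0 in each pair, by 0.26, 0.11 and 0.10, with overlapping fractions.

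The RNA helicase sensors were split. Ddx58, which encodes RIG-I, lay at 5.72, 5.60 and 5.87 in GPR15- samples and at 5.07, 6.41 and 6.39 in GPR15+ samples. GPR15+ sample 1 was thus the lowest of the 6 and the other two GPR15+ samples the highest. With GPR15+ replicate 1 left out the Ddx58 difference of 0.23 became 0.67, and with GPR15+ replicate 5 or 6 left out 0.0007 or 0.0103. Ifih1, which encodes MDA5, had GPR15- values of 7.09, 7.22 and 7.15 and GPR15+ values of 7.88, 7.11 and 6.59, so its GPR15+ samples held both the highest and the lowest value. The difference of Ifih1 was 0.04, and -0.30 without GPR15+ replicate 1. Dhx58, which encodes LGP2, a helicase that tunes the other two, differed by -0.08, and above 0 after quantile normalization or removal of the trend with level.

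The oligoadenylate synthetases, which on binding double-stranded RNA make the messenger that activates RNase L, leaned the other way from Zbp1. Oas3 lay at 5.02, 4.98 and 4.85 in GPR15- samples and at 4.60, 4.64 and 4.56 in GPR15+ samples. The fractions did not overlap, and the difference was -0.35 ± 0.15 (SE), with -0.42, -0.34 and -0.29 in the pairs (limma adjusted p = 0.773). Oas2 differed by -0.42 ± 0.21 (SE), with 0.00 in pair 1 and -0.84 and -0.42 in pairs 5 and 6, and it was -0.25 with GPR15+ replicate 5 left out. Oas1a, whose near-identical neighbours may share its probes, differed by 0.02. Both rows were faint: Oas2 stood at percentile 19.0 of mean level and Oas3 at percentile 13.8.

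Of the 19 effectors 13 lay above 0 and 6 below, with a median of 0.10. Single arrays decided that median: it was -0.06 when GPR15+ replicate 6 was left out and 0.29 when GPR15+ replicate 1 was. With GPR15- replicate 5 or 6 left out it was 0.05 or 0.16. The guanylate-binding proteins, GTPases that assemble on the membranes of intracellular pathogens and their vacuoles, stood at the upper end. Gbp2 lay at 6.97, 6.89 and 7.08 in GPR15- samples and at 7.54, 8.004 and 8.27 in GPR15+ samples. This is 1.94-fold higher, or 0.96 ± 0.22 (SE), with no overlap and 0.56, 1.11 and 1.19 in the pairs (limma adjusted p = 0.773).

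Gbp3 lay at 10.46, 9.38 and 9.32 in GPR15- samples and at 10.83, 10.14 and 10.02 in GPR15+ samples. Here the number parted the arrays more than the fraction, with both samples numbered 1 above all others, and the fractions overlapped. Within each number the GPR15+ sample was the higher, by 0.37, 0.76 and 0.70, for a mean difference of 0.61 ± 0.35 (SE). It was 0.36 with GPR15+ replicate 1 left out and 0.98 with GPR15- replicate 1 left out. The SE given includes the spread between numbers. With the number as a block the SE was 0.16, and Gbp3 did not pass (limma adjusted p = 0.313).

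The other genes with a Gbp symbol in the table used here, Gbp4, Gbp7, Gbp8 and Gbp9, stood in a list of interferon gamma-responsive genes and are not among the 37. All 6 lay above 0 over the 3 arrays a fraction and within each of the 3 pairs, with differences from 0.25 to 0.96 and a median of 0.69; of all genes, 13.4% lay above 0 in every pair. Their differences kept that direction in all 84 values under other scalings, filters and samples left out, the lowest being 0.14. Many of these values could not turn. The block, the filter, the mean of rows and the variance model returned the same differences, and centring arrays on their medians raised every one. Gbp4 lay at 8.63, 8.37 and 8.84 in GPR15- samples and at 9.36, 9.33 and 9.34 in GPR15+ samples, a difference of 0.73 ± 0.18 (SE). Gbp9 differed by 0.68 ± 0.16 (SE) and Gbp8 by 0.69 ± 0.23 (SE), and for Gbp2, Gbp4, Gbp8 and Gbp9 the fractions did not overlap. None of them passed over all genes (limma adjusted p from 0.773 to 0.797). The family was singled out after its values were seen, and its members resemble one another in sequence, so their rows may share signal.

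**Figure D3:**
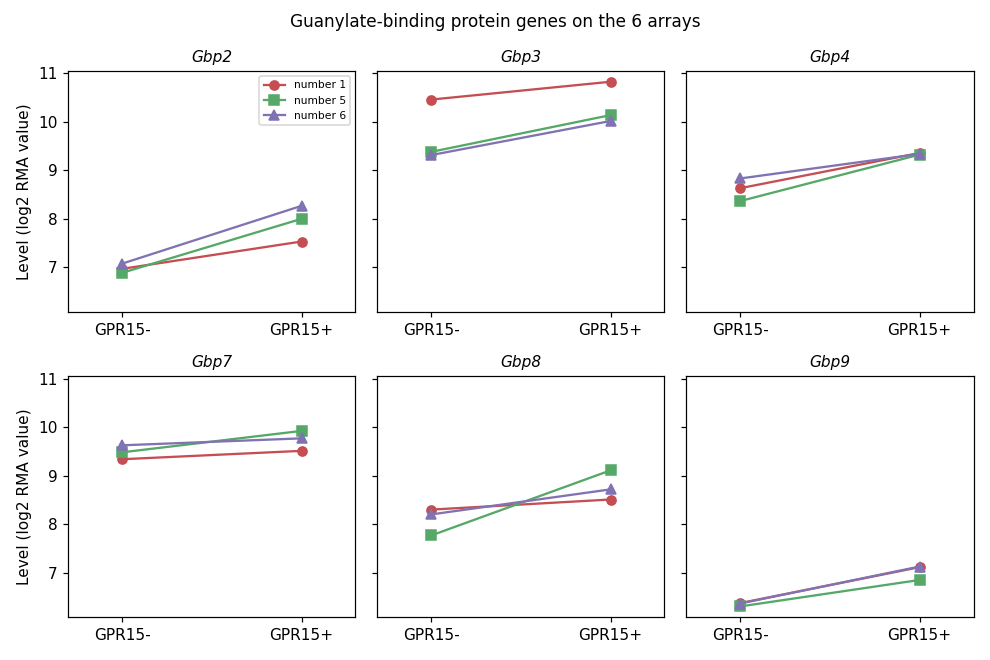
Levels (log2 RMA units) of the 6 guanylate-binding protein genes in GPR15- and GPR15+ samples, with a line joining samples of equal number. Every line runs upward from GPR15- to GPR15+, by 0.14 for Gbp7 in pair 6 to 1.34 for Gbp8 in pair 5.

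The IFIT genes, whose products bind viral RNA or restrain translation, were split. Ifit3 lay at 7.47, 7.26 and 7.34 in GPR15- samples and at 7.05, 6.51 and 6.84 in GPR15+ samples. This was the largest downward difference of the 37, at -0.56 ± 0.19 (SE), with no overlap and -0.42, -0.75 and -0.50 in the pairs (limma adjusted p = 0.773). Its family member Ifit2 differed by 0.37 and lay above 0 in each pair, by 0.13, 0.52 and 0.45, while Ifit1 differed by 0.08. With GPR15+ replicate 5 left out the difference of Ifit2 was 0.20, and with GPR15+ replicate 1 left out 0.58. Mouse Ifit3 has a close copy that an array may not tell apart.

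The proximal promoters of Gbp2 and Gbp3 and of Ifit3 and Oas3 are shown because these genes carried the same kind of element and lay on opposite sides of 0. Each sequence is the 250 bases before the RefSeq start site (build GRCm38.p6), on the gene's own strand from 5′ to 3′, and capitals mark matches to GAAANNGAA, a pair of half-sites bound by interferon regulatory factors, or to its reverse complement TTCNNTTTC.
Gbp2, chr3:142620413-142620662, plus strand: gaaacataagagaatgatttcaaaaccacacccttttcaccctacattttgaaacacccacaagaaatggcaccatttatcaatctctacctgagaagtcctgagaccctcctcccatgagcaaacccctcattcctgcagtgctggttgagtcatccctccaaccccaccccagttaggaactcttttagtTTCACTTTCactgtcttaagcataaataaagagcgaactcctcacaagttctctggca
Gbp3, chr3:142559794-142560043, plus strand: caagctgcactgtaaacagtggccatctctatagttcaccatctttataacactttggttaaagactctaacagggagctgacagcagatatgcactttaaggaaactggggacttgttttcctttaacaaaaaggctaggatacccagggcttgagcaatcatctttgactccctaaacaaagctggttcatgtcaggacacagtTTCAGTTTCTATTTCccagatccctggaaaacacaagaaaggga
Ifit3, chr19:34583279-34583528, plus strand: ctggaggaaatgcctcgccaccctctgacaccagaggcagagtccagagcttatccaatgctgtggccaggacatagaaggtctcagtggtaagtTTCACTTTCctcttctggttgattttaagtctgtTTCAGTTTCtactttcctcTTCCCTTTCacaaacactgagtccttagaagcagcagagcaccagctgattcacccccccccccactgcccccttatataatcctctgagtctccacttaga
Oas3, chr5:120777660-120777909, minus strand: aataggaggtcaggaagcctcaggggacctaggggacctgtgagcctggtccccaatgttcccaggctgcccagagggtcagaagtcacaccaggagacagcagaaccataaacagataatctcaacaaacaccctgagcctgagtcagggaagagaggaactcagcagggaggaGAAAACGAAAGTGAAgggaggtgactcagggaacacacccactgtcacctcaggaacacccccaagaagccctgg
Gbp2 held 1 match, Gbp3 held 2 that overlap, Ifit3 held 3 that are separate, and Oas3 held 2 that overlap. Of the 37 members 27 had an entry in the RefSeq promoter table, which runs from 250 bases before the start to 50 after it; the first entry of a gene was used. The motif occurred on either strand in 15 of the 27 (55.6%) and in 8.57% of all 27025 genes with an entry. The list was drawn up for induction by interferon, so this excess is not a result of the arrays. The motif was in 5 of 5 sensors, 9 of 15 effectors and 1 of 7 regulators (Trim25). A second motif, TTCNNNGAA, the palindrome known as the gamma-activated sequence, was in 7 of the 27 (25.9%) against 8.47% of all, 4 members held both motifs, and in 2 of these the letters overlapped. Members with the first motif had a median difference of 0.08 over 15 genes and those without it 0.22 over 12, with no test of that difference. Those without it held 0 sensors, 6 effectors and 6 regulators, so motif and role cannot be told apart in this split. A match is a description of letters and not a site of binding.

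Other effectors showed smaller or less even differences. Isg20, an exonuclease that degrades single-stranded RNA, lay at 8.18, 8.24 and 8.01 in GPR15- samples and at 8.64, 8.43 and 8.46 in GPR15+ samples, without overlap, a difference of 0.37 ± 0.16 (SE). Rsad2, which encodes viperin, differed by 0.10 and its chromosomal neighbour Cmpk2, a mitochondrial nucleotide kinase, by 0.24, a value that was 0.089 with GPR15+ replicate 6 left out and 0.38 with GPR15+ replicate 5 left out. The dynamin-like GTPases lay below 0, Mx1 at -0.27 and Mx2 at -0.16, with Mx1 at -0.15 without GPR15+ replicate 1 and Mx2 at 0.05 without GPR15+ replicate 5; Mx1 is disrupted in most laboratory strains and its row was dim. Xaf1, a promoter of apoptosis, differed by 0.17 and Lgals3bp, a secreted glycoprotein, by -0.11.

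In 6 members pair 1 lay below 0 while pairs 5 and 6 lay above it, 5 of them effectors. They are 16.2% of the 37, near the 13.5% of all genes with that arrangement. Bst2, which encodes tetherin, the protein that holds budding virions on the cell, lay at 9.20, 9.25 and 9.63 in GPR15- samples and at 8.75, 9.78 and 9.87 in GPR15+ samples. Samd9l, a restriction factor and brake on proliferation, differed by -1.17 in pair 1 and by 0.82 and 0.30 in pairs 5 and 6. Isg15, a ubiquitin-like modifier that is attached to other proteins, differed by -0.60, 0.53 and 0.44, and Rtp4, a receptor chaperone, by -0.26, 1.13 and 0.94. The Rtp4 difference of 0.60 was 0.27 with GPR15+ replicate 6 left out, 0.36 with GPR15- replicate 5 left out and 0.96 with GPR15+ replicate 1 left out. The antiviral membrane protein gene Ifitm3 differed by -0.28, 0.24 and 0.25, and Ddx58, described above, is the sixth. Ifi27l2a, a small membrane protein gene, parted pair 5 from the others, at 0.42 against -0.13 and -0.07. Over all 6 arrays Samd9l had -0.02 ± 0.38 (SE), 0.46 without GPR15+ replicate 1 and 0.56 without both arrays numbered 1. After quantile normalization Bst2 turned from 0.11 to -0.03.

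**Figure D4:**
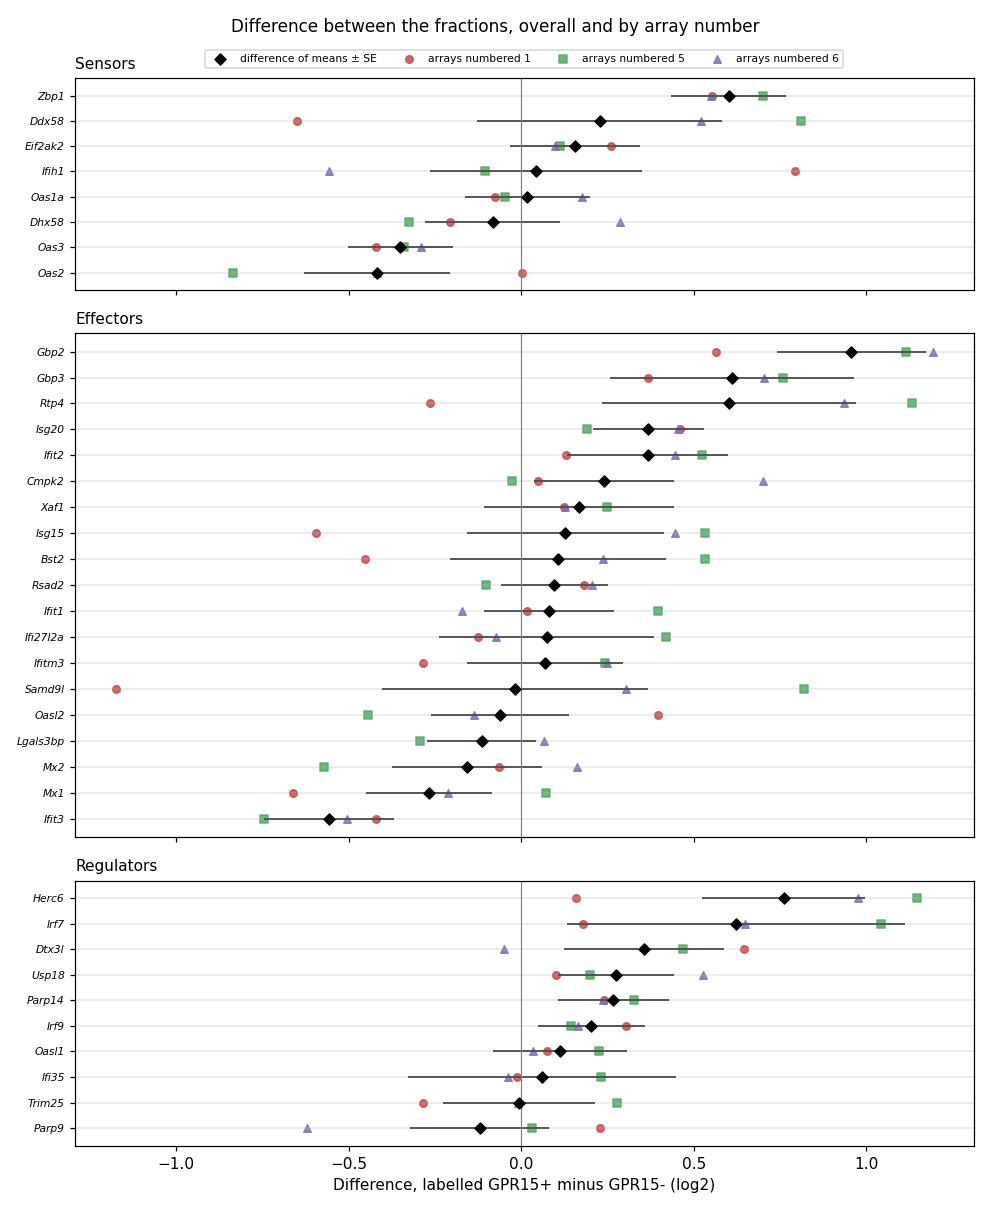
Difference between GPR15+ and GPR15- samples (log2) for each of the 37 genes, with a black diamond and limma's standard error for the difference of means and coloured symbols for the samples numbered 1, 5 and 6. In pairs 5 and 6 alike 19 genes lie to the right of 0, while red circles lie on the opposite side for genes such as Samd9l, Isg15 and Ddx58.

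The pairs therefore contributed unequally. The median over the 37 was 0.05 in pair 1, 0.23 in pair 5 and 0.18 in pair 6, and 21, 26 and 25 members lay above 0. Over all genes the share above 0 was 46.9%, 41.9% and 42.6%. The trend with level differed by pair too. At levels of 8 to 9 the median of all genes was -0.01, 0.175 and 0.12 in pairs 1, 5 and 6. At levels of 5 to 6 it was -0.04, -0.20 and -0.16. The median range of the 3 differences was 0.56 over the members and 0.52 over all genes, so unequal pairs were not particular to the list. In pairs 5 and 6 together 19 of the 37 (51.4%) lay above 0 in both, against 26.9% of all genes. All 3 pairs agreed above 0 for 13 members and below 0 for 2, or 35.1% and 5.41%, against 13.4% and 23.6% of all genes.

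The regulators had the highest median of the 3 roles, at 0.24, with 8 of 10 above 0. The difference between roles was not tested. The median lay above 0 in each pair, at 0.17, 0.25 and 0.10, and from 0.18 to 0.26 with any 1 array left out. Herc6, the main ligase that attaches Isg15 to proteins in mice, lay at 8.34, 8.13 and 8.26 in GPR15- samples and at 8.50, 9.28 and 9.23 in GPR15+ samples. The fractions did not overlap, and the difference of 0.76 ± 0.24 (SE), or 1.69-fold, was small in pair 1 (0.16) and large in pairs 5 and 6 (1.15 and 0.97; limma adjusted p = 0.773). Usp18, the protease that removes Isg15 and also restrains the interferon receptor, lay at 6.70, 6.58 and 6.31 in GPR15- samples and at 6.80, 6.78 and 6.83 in GPR15+ samples, a difference of 0.27 ± 0.17 (SE), or 0.16 with GPR15- replicate 6 left out. Trim25, a ubiquitin ligase that acts on RIG-I, differed by -0.01, and lay above 0 under each of the 3 rescalings.

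The transcription factors both lay above 0. Irf9, a DNA-binding part of the complex with Stat2, lay at 8.79, 8.75 and 8.73 in GPR15- samples and at 9.10, 8.89 and 8.90 in GPR15+ samples. The fractions were close but did not overlap, and the difference was 0.20 ± 0.15 (SE), or 0.14 with GPR15+ replicate 1 left out. After quantile normalization it was 0.07, and with the trend against level removed 0.11. Irf7, which amplifies interferon production, lay at 5.76, 6.73 and 6.77 in GPR15- samples and at 5.93, 7.77 and 7.42 in GPR15+ samples. Both samples numbered 1 were the lowest, and within each number GPR15+ was the higher, by 0.18, 1.04 and 0.65. The difference was 0.62 ± 0.49 (SE). It ranged with the array left out, from 0.26 (GPR15+ replicate 5) and 0.29 (GPR15- replicate 1) to 1.18 (GPR15+ replicate 1). With the number as a block the SE was 0.20, and Irf7 did not pass (limma adjusted p = 0.356).

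Parp14, an ADP-ribosyltransferase, lay at 7.98, 7.70 and 7.83 in GPR15- samples and at 8.22, 8.03 and 8.07 in GPR15+ samples, without overlap and at 0.27 ± 0.16 (SE). Dtx3l, a ubiquitin ligase, differed by 0.35, but by 0.14 with GPR15- replicate 1 left out and 0.55 with GPR15- replicate 6 left out. Its partner Parp9 differed by -0.12. Oasl1, which represses translation of Irf7 mRNA, differed by 0.11 and its relative Oasl2, counted with the effectors, by -0.06, a sign that turned with each of the 3 rescalings of the arrays. Ifi35, which binds other interferon-induced proteins, differed by 0.06, and by -0.09 after quantile normalization.

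How much the members varied between sample numbers was tested with limma's F test for the number, with the fraction in the model. Of the 37, 0 passed over all genes, where 1.82% of all genes did, and 5 had an unadjusted p under 0.05, where 19.8% of all genes had. The lowest adjusted p were 0.0539 for Ifi35, 0.0541 for Irf7 and 0.0762 for Gbp3. For Ifi35 both samples numbered 1 were low (GPR15- 7.88, GPR15+ 7.87), those numbered 5 followed (8.64 and 8.87) and those numbered 6 were highest (9.06 and 9.03). Samples of equal number thus lay closer for this gene than samples of equal fraction. Gbp3 passed after quantile normalization (adjusted p = 0.0499) and with the trend against level removed (0.0427), Irf7 and Ifi35 without the dimmest 40% of genes (0.0467 and 0.0461), and Irf7 with a robust, trended variance (0.0495). Under those settings 0.703%, 0.785%, 3.48% and 2.11% of all genes tested passed.

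Genes around the list were taken from lists of the same pathway. Of 8 measured genes of the receptors and their kinases and Stat factors, 7 lay above 0, where 40.8% of all genes did. Their median was 0.20, with 0 past the adjusted threshold (0% of all genes). These genes were bright, with a median level of 8.63, and at levels of 8 to 9 the median difference of all genes was 0.08. Ifngr2, a chain of the interferon gamma receptor, differed by 0.59 ± 0.27 (SE), Stat2 by 0.56 ± 0.23 (SE) and Jak1 by 0.25. The Stat2 values were 8.01, 8.81 and 8.34 in GPR15- samples and 8.80, 9.16 and 8.86 in GPR15+ samples, where GPR15- sample 5 reached just above GPR15+ sample 1. Of the interferon genes themselves 9 of 10 lay below 0, with a median of -0.18. Most genes of the array lay below 0 too, with a median of -0.06. It was -0.11 at levels of 6 to 7, where the median level of the interferon genes fell (6.19). Ifna4 (-0.37), Ifnb1 (-0.35) and Ifna1 (-0.28) had the largest differences, and none passed. Ifna4 was faint, at percentile 1.7 of mean level.

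Among adaptors and upstream sensors 7 of 12 lay above 0, where 40.8% of all genes did, with a median of 0.15. Irf5 (-0.30), Tlr7 (-0.29) and Ticam1 (0.28) had the largest differences. Of 7 partners and brakes 5 lay above 0. Ube2l6, the conjugating enzyme for Isg15, lay at 4.96, 5.94 and 5.71 in GPR15- samples and at 6.10, 6.22 and 6.15 in GPR15+ samples, without overlap and at 0.62 ± 0.26 (SE), or 0.33 with GPR15- replicate 1 left out. Socs1, which inhibits the receptor's kinases, differed by -0.32 and the phosphatase gene Ptpn2 by 0.20. Of 18 interferon gamma-responsive genes 13 lay above 0 with a median of 0.24, 4 had an unadjusted p under 0.05 (all of them above 0, where 2.79% of all genes were), and 0 passed over all genes (limma adjusted p from 0.773 to 0.953). This list of 18 had a median level of 8.13, and at levels of 8 to 9 the median difference of all genes was 0.08. Its leading 3, Gbp4, Gbp8 and Gbp9, and also Gbp7 are given above with their family, whose rows may share signal. Cxcl9 and Cxcl10, chemokine genes induced by interferon gamma, differed by -0.29 and -0.14.

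Most markers of other cells lay below 0, as did most genes of the array, of which 40.8% lay above 0. At levels of 6 to 7 the median difference of all genes was -0.11. List medians were -0.21 for epithelial, -0.15 for macrophage and monocyte, -0.28 for dendritic cell and -0.28 for B and plasma cell genes. The largest differences among epithelial genes were Vil1 (-0.59), Phgr1 (-0.51) and Krt18 (-0.43). Itgam (-0.49), Lyz2 (-0.48) and Adgre1 (-0.35) led the macrophage and monocyte list. Xcr1 (-0.32), H2-Aa (-0.31) and Itgax (-0.30) led the dendritic cell list. Jchain (-1.13), Mzb1 (-0.59) and Cd79a (-0.36) led the B and plasma cell list. Jchain differed by more than any of the 37, with -1.71, -1.60 and -0.07 in pairs 1, 5 and 6. None passed. The mean level of a list, array by array, was 6.65 to 6.76 in GPR15- and 6.34 to 6.70 in GPR15+ for 10 epithelial genes, of which 8 lay below 0. It was 5.95 to 6.22 against 5.77 to 6.25 for 11 macrophage and monocyte genes, of which 8 lay below 0. For plasmacytoid dendritic cells, which express Bst2 and Irf7 strongly, 7 markers had means of 6.94 to 7.11 against 6.73 to 7.23. Of these, 3 lay above 0 and 4 below, with a median of -0.03. Klk1 (-0.41), Cox6a2 (-0.25) and Irf8 (0.23) had the largest differences. The defining marker of these cells, Siglech, differed by -0.03 at the 21.8 percentile of mean level. Dendritic cell genes lay below 0 for 6 of 7, with means of 6.18 to 6.27 against 5.89 to 6.20, and B and plasma cell genes for 5 of 6, with means of 5.96 to 6.25 against 5.54 to 5.84. An array gives no value of 0 and no detection call was used, so whether these cells were present cannot be read from the level. Fewer cells of a type and less RNA per cell cannot be told apart in sorted bulk samples, and the part of these markers in the differences above was not tested.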

How the data were processed

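Gene expression was measured in 6 samples of sorted Tregs, 3 a fraction. The authors deposited RMA log2 values per probe set, per the submitters' processing notes; the software version and genome build are not given in the sources used here. The table held 22142 rows, of which 19527 had 1 gene symbol in the platform annotation, 0 several and 2615 none. The row with the highest mean was taken for 33 genes with several rows, leaving 19494. All 37 members had gene identifiers in the reference table (GRCm38.p6).

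Groups and numbers came from the sample titles. The test was limma's (version 3.58.1, R 4.3.3) without a block, adjusted by Benjamini-Hochberg over the 19494 genes and read at 0.05. Errors are limma's moderated SE, without a block unless stated. An exact permutation test of 3 against 3 cannot go below 0.1 (2-sided). The fit was tested on simulated data. Deviations from group means correlated at 0.567, 0.381 and 0.319 between samples numbered 1, 5 and 6, each over 0.1, and equal numbers were therefore treated as pairs. Unequal numbers involving 1 correlated from -0.508 to -0.384, but GPR15- 6 with GPR15+ 5 at 0.315 and GPR15- 5 with GPR15+ 6 at 0.213, so 5 and 6 were hardly parted; the labels do not explain them.

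The members and lists were chosen with earlier results of these data known. All members are named, with values in full for the 5 smallest p, those without overlap between fractions and the 3 with the highest mean level; of other lists up to 3 genes with the largest difference were to be named. Named outside the rule after their values were seen, or as known parts of the pathway, were Gbp7, Cxcl9, Cxcl10, Siglech and Il2ra, and in full Ddx58, Ifih1, Irf7, Ifi35, Gbp4, Stat2 and Ube2l6. The alternatives tried were the block, 3 rescalings, a filter on the dimmest 40% of genes, the mean of rows, another variance model and samples left out.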

Additional observations from a re-analysis of the deposited data

How the results depend on the processing

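No setting called a member between the fractions: 0 of 37 under the replicate block, the rescalings, the mean of rows, the trended variance and each array left out, and 0 of 26 without the dimmest 40%. With the replicate block the lowest adjusted p of a member was 0.229 and the block changed no call. With all arrays kept, the block, the filter, the mean of rows and the variance model cannot change a member's difference. Only the rescalings could turn it. Of 248 differences with all arrays, those unchanged ones included, 235 kept their direction. Those that turned under quantile normalization were Bst2 (-0.027), Dhx58 (0.0068), Ifi35 (-0.085), Oasl2 (0.052) and Trim25 (0.030), those with the trend against level removed Dhx58 (0.037), Ifi35 (-0.023), Oasl2 (0.064), Parp9 (0.0057) and Trim25 (0.095), and those with arrays centred on their medians Oasl2 (0.0075), Samd9l (0.052) and Trim25 (0.063). Without both arrays numbered 1 Ifih1 (-0.33), Samd9l (0.56) and Trim25 (0.13) turned. The median of the members ran from 0.060 to 0.240 with 1 array left out, and that of the effectors from -0.059 to 0.292. For members that turned when 1 array was left out, the lowest and highest differences were -0.096 and 0.465 for Bst2, -0.188 and 0.047 for Dhx58, -0.142 and 0.362 for Ifi27l2a, -0.263 and 0.419 for Ifi35, -0.299 and 0.344 for Ifih1, -0.070 and 0.210 for Ifit1, -0.105 and 0.163 for Ifitm3, -0.109 and 0.414 for Isg15, -0.331 and 0.052 for Mx2, -0.111 and 0.110 for Oas1a, -0.0041 and 0.239 for Oasl1, -0.215 and 0.088 for Oasl2, -0.255 and 0.029 for Parp9, -0.336 and 0.456 for Samd9l, -0.213 and 0.163 for Trim25, and -0.051 and 0.406 for Xaf1. Between numbers, 1 member was called after quantile normalization, 1 with the trend removed, 2 without the dimmest 40% and 1 with the trended variance, where 0.703%, 0.785%, 3.48% and 2.11% of all genes were; the filter tests fewer genes, and the cause of the others was not tested. Without GPR15+ replicate 1, 9 of the 37 members lay above and 2 below at an unadjusted p of 0.05 (limma). Of all 19494 genes, 4351 passed that mark in either direction, so it was passed widely over the array. The number of arrays, 3 a fraction, limits the precision, and no detection calls were used.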
